A study of Mus musculus with 8 samples.

Results

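The hair shaft keratins and the keratin-associated proteins were examined as a group of genes across 4 sorted cell populations of the mouse hair follicle, by the accessible chromatin sites that lie next to them. Members were the protein-coding genes named Krt31 to Krt36 (with Krt33a and Krt33b), Krt39, Krt40 and Krt81 to Krt87, and every gene whose symbol starts with Krtap. The gene table gave 71 members of 21631 protein-coding genes, namely 15 keratins (9 of type I on chromosome 11 and 6 of type II on chromosome 15) and 56 Krtap genes. Krt85 was not analysed here. A site was counted for a member when that member was the nearest protein-coding gene to the site's midpoint, within 100 kb. Of 114956 sites in the 4 populations together, 105 were assigned to members, out of 102821 assigned to any gene.

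The hair shaft is built from hard keratins. A type I and a type II chain pair to form the filaments of the cortex and cuticle cells, and the keratin-associated proteins, which are small and rich either in cysteine or in glycine and tyrosine, cross-link these filaments into a rigid fibre. The cells that switch these genes on descend from stem cells in the bulge and the hair germ of the resting follicle, by way of the transit-amplifying cells (TACs) of the matrix in the growing follicle.

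Cells came from back skin of mice of mixed sex, and 8 samples, 2 per population, were assayed by ATAC-seq, in which a transposase cuts open DNA and tags it for sequencing. Bulge stem cells were sorted as GFP+ cells with CD34 and the integrins Itga6 and Itgb1 on their surface, and hair germ cells as GFP+ cells with both integrins but without CD34, at postnatal day 55, in the second telogen or resting phase, from Lgr5-eGFP-ires-CreER mice, in which the stem cell gene Lgr5 drives the reporter and the recombinase. Basal TACs (GFP-/CD34-/Itgb1high/Pcad+/SCA1-) came from the same strain at postnatal day 30, in the growth phase or anagen. Suprabasal TACs (GFPlow/Itga6-/CD34-) came at day 30 from K14-H2BGFP mice, in which the keratin 14 promoter drives a nuclear reporter. Phase and age changed together between the telogen and anagen populations, and strain changed with the suprabasal gate, so these cannot be told apart from the population.

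The authors deposited 1 peak list per population, called on both samples pooled, so there is no spread between replicates and no test of a difference between populations. Shares below carry 95% exact (Clopper-Pearson) intervals that cover counting error only. From here on, 4 values in a row follow the lineage order of bulge, then hair germ, then basal TACs and last suprabasal TACs. Pooled depth was 24065469, 11053351, 30824845 and 47852893 fragments, and the lowest coverage called as a peak was 10, 6, 12 and 15 fragments. The gates were checked by counting sites at marker genes. The 8 bulge markers had 108, 91, 87 and 72 sites, and the 5 matrix markers had 27, 33, 56 and 78. The 3 markers of the hair germ and P-cadherin gate had 46, 40, 37 and 35, most in the bulge. The 5 epithelial markers had 35, 30, 34 and 26. Among the bulge markers, Sox9 (10, 12, 7 and 7), Lhx2 (13, 13, 11 and 15) and Tcf7l1 (18, 16, 24 and 16) had more sites in another list. The P-cadherin gene Cdh3 had 12, 10, 10 and 13, so site counts separated the gates only in part. Markers of other cells were not at 0: the 5 melanocyte genes had 7, 5, 14 and 24 sites (Tyr had none in any list, and Pmel and Mlana none in the hair germ), the 4 dermal genes 13, 9, 12 and 13, the 3 immune genes 3, 5, 10 and 11, and the 3 endothelial genes 25, 25, 30 and 21. Of these genes Cd52 and Cd3e were at 0 in both telogen lists, Col3a1 in the bulge and suprabasal TACs, and Tek in suprabasal TACs. Melanocyte and immune sites were thus more numerous in both TAC lists than in both telogen lists, as were the member sites below, and their part in the member counts was not tested.

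As called, the shaft genes had few sites in the telogen populations along this lineage and most in suprabasal TACs. The bulge list held 29 peaks at members, the hair germ list 34, the basal TAC list 63 and the suprabasal TAC list 76. A peak was assigned to 14 members (19.7%) of the 71 from the bulge list, and to 17 (23.9%), 31 (43.7%) and 38 (53.5%) from the next 3 lists. Over all protein-coding genes the same shares were 69.5%, 68.8%, 73.6% and 72.7%, so the members' shares lay below those of all genes in every list and spread more between lists. The lead of suprabasal over basal TACs was smaller among stronger peaks. With −log10 q-values of at least 10, basal and suprabasal TACs held 53 and 56 peaks at members, and each had a peak at 28 members. With lists cut to equal numbers of peaks, 27 members had a basal and 32 a suprabasal TAC peak. In sorted but mixed cells, fewer cells with an open site and less opening per cell cannot be told apart. All 15 keratins had a site in at least 1 list, whereas 26 of 56 Krtap genes did. The keratin spans were longer (3906 to 9444 bp, against 304 to 1891 bp), which can affect assignment to the nearest gene. The part of span length was not tested, and the same count was not made over all genes.

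**Figure D1:**
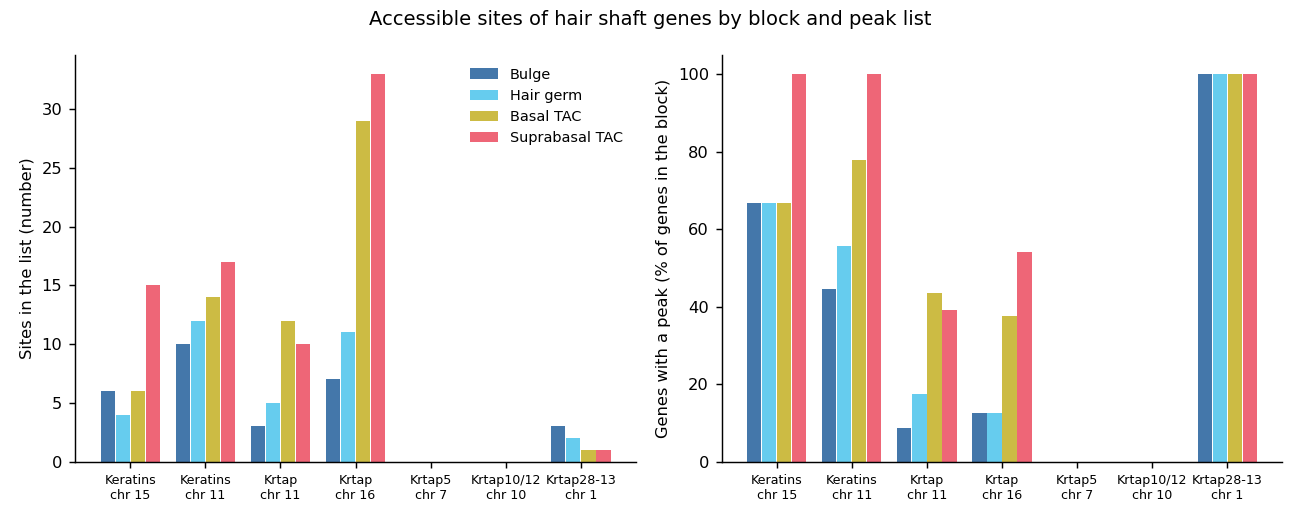
Number of sites (left) and percentage of genes with an assigned peak (right) in each of the 4 peak lists, for the keratin and Krtap genes of each chromosome; bars are single values from pooled lists, with no error. The suprabasal TAC bars are the highest in both keratin blocks and in the chromosome 16 Krtap block (33 sites). The basal TAC bar is the highest in the chromosome 11 Krtap block (12 sites against 10). The Krtap genes of chromosomes 7 and 10 have no assigned site.

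Peaks of the 4 lists that overlapped by at least 1 bp were joined, and each of the 105 sites was classed by the lists that hold it. The most frequent class was a peak in suprabasal TACs alone, with 31 sites (29.5%, interval 21.0 to 39.2), against 15.8% of all assigned sites. Peaks in both TAC lists and neither telogen list made up 22 sites (21.0%), against 10.8%. Sites found in all 4 lists numbered 17 (16.2%), against 28.9% of all assigned sites, and sites in basal TACs alone numbered 14 (13.3%), against 13.7%. Sites in both telogen lists but no TAC list numbered 6 (5.71%, against 6.26%), in the bulge alone 3 (2.86%, against 6.35%) and in the hair germ alone 2 (1.90%, against 2.26%). The other combinations held few: 5 sites were in all lists but the bulge (4.76%, against 1.81%), 2 in all but suprabasal TACs (1.90%, against 5.33%), 2 in hair germ and basal TACs (1.90%, against 1.11%) and 1 in bulge and suprabasal TACs (0.952%, against 1.07%). None was in all lists but the hair germ (2.17% of all assigned sites), in all but basal TACs (2.04%), in bulge and basal TACs (1.7%) or in hair germ and suprabasal TACs (0.605%). In total, 67 member sites (63.8%, interval 53.9 to 73.0) were called in anagen lists only, against 40.4% of all assigned sites, and 11 (10.5%) in telogen lists only, against 14.9%. The suprabasal library was also the deepest. When the coverage of each suprabasal-only site was scaled to the depth of the other libraries, 25 of the 31 would still have reached the lowest coverage called there.

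Member sites lay farther from the span of their gene than sites in general. Member spans were short, at 304 to 1891 bp for Krtap genes and 3906 to 9444 bp for keratins. A short span leaves less room for a midpoint inside it, and the part of gene length in these distances was not tested. The median distance from a site's midpoint to its member gene was 3156.5 bp, whereas over all assigned sites the median was 0, since most midpoints lay inside a gene. Of the 105 sites, 34 came within 1 kb of the gene span and 28 touched it. By list, the members' sites within 1 kb made up 27.6%, 26.5%, 27.4% and 36.8%, where all assigned sites gave 68.7%, 69.1%, 68.5% and 69.6%. Of the suprabasal-only sites 14 of 31 lay within 1 kb (median distance 1610.5 bp), and of the basal-only sites 3 of 14, both below the 65.2% and 62.7% of all assigned sites of these classes. Members with a site within 1 kb numbered 8, 9, 16 and 21 in lineage order, or 11.3%, 12.7%, 22.5% and 29.6% of members, where all genes gave 64.6%, 64%, 68.3% and 67.6%.

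Each step of the lineage was then compared by the sites that only 1 of 2 lists holds. Between bulge and hair germ, 38 member sites were held by either list, of which the hair germ held 9 alone (23.7%) and the bulge 4 (10.5%). Over all sites these shares were 9.7% and 18.9%, in the opposite order, but the interval of the members' direction was wide (69.2% of changed sites in the hair germ, 38.6 to 90.9, against 33.9% over all sites). As a share of the sites held by either list, the largest of the 3 successive steps was from hair germ to basal TACs, for members as for all sites, where basal TACs alone held 36 of 70 sites (51.4%) and the hair germ alone held 8 (11.4%), against 37.1% and 14.5% over all sites. The share of changed sites held by basal TACs was 81.8% (67.3 to 91.8), an interval that includes the 71.8% over all sites, and without the chromosome 16 cluster it was 70.8%, just below that value. From basal to suprabasal TACs, 32 of 94 sites (34.0%) were held by suprabasal TACs alone and 18 (19.1%) by basal TACs alone, against 22.9% and 25.7%.

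For this last step the keratins and the Krtap genes are given apart. Of 18 keratin sites that differed between the TAC lists, 15 were suprabasal (83.3%, interval 58.6 to 96.4). Of 32 such Krtap sites, 17 were suprabasal (53.1%, interval 34.7 to 70.9), so the Krtap genes changed sites in both directions, while over all genes 47.1% of changed sites were suprabasal. From hair germ to basal TACs the order was the other way round, with 28 of 32 changed Krtap sites (87.5%, 71.0 to 96.5) and 8 of 12 changed keratin sites (66.7%, 34.9 to 90.1) held by basal TACs alone. The intervals of the keratin and Krtap shares overlap in both steps, and the difference between them was not tested.

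Set against the bulge directly, suprabasal TACs alone held 58 of 87 sites and the bulge alone 11 (35.1% and 23.7% over all sites), and basal TACs alone held 43 of 72 and the bulge alone 10 (33.8% and 19.3%). Suprabasal TACs alone held 54 of 88 sites when set against the hair germ, which alone held 12 (38.2% and 19.1%). By gene, 31 members had more sites in suprabasal TACs than in the bulge and 4 had fewer, 3 had equal numbers and 33 had none in either. The same count was not made over all genes, and the suprabasal library was also the deeper, so how unusual this count is was not tested. The 6 comparisons share lists and are not independent of each other.

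**Figure D2:**
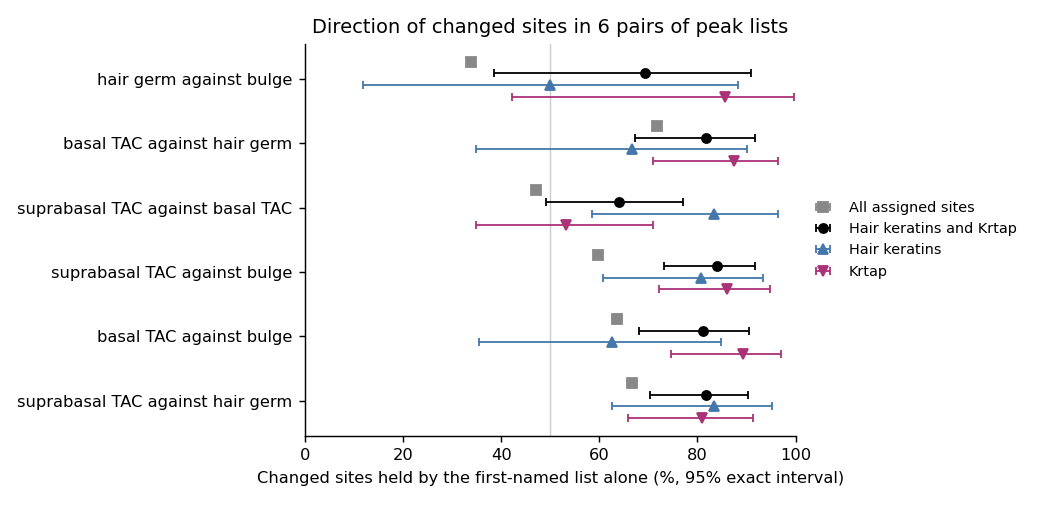
Percentage of changed sites that the first-named list holds alone, for 6 pairs of peak lists, with 95% exact binomial intervals: all assigned sites (grey squares), all members (black circles), keratins (blue triangles) and Krtap genes (purple triangles). Members lie to the right of all sites in each pair, and in the pair of TAC lists the keratins (83.3%) lie farther right than the Krtap genes (53.1%).

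The type I hair keratins stand at both ends of a 596.5 kb cluster on chromosome 11 (chr11:99512960-100109487, mm10), with 23 Krtap genes between Krt40 and Krt33a. The 9 keratins had 10, 12, 14 and 17 sites. At the low-coordinate end, Krt39, expressed in late stages of the shaft, had 1, 1, 3 and 3 sites in the 4 lists in lineage order, and Krt40, a cuticle keratin, had 0, 0, 1 and 1. The common site over the 3′ end of Krt39 (chr11:99512774-99514649) had coverages of 40, 45, 103 and 64. The single Krt40 site lay inside the gene, with a coverage of 29 fragments over the summit in basal TACs and 23 in suprabasal TACs.

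At the other end some keratins had sites in both telogen lists, and others had none in the bulge list. Krt32, a cuticle keratin, had 5, 4, 4 and 3 sites in lineage order and was the member keratin with most sites. The site inside Krt32 (chr11:100085223-100085786) was in all 4 lists with coverages of 110, 45, 100 and 100. Krt32 also carried a bulge and hair germ site 6831 bp beyond its 3′ end (coverages 89 and 35) and a bulge-only site nearby (coverage 86) that the TAC lists lacked. Krt31 and Krt33a, keratins of the cortex, had 2, 3, 1 and 1 and 2, 3, 2 and 2 sites. A site inside Krt33a (chr11:100013623-100014535) was in all 4 lists, with coverages of 103, 47, 129 and 64, and stood among the 3 highest fold enrichments of the cluster in the first 3 lists (14.5, 12.7 and 13.0) but not in suprabasal TACs. A region upstream of Krt31 (chr11:100055544-100058146) was accessible in every population, with coverages of 235, 110, 222 and 235, and had the highest fold enrichment of the cluster in suprabasal TACs (10.99).

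Krt33b, Krt34, Krt35 and Krt36 had no bulge site. Krt33b had 1 site in each of the other 3 lists, with coverages of 13, 123 and 74, and its fold enrichment of 14.3 was the highest of the cluster in basal TACs. Krt34, a cortex keratin, had a single site, over its 3′ end, in suprabasal TACs alone (coverage 36). At Krt35, which is switched on early in the matrix, a site over the high-coordinate end of the gene (chr11:100095947-100096570) had a coverage of 17 in basal TACs and 210 in suprabasal TACs, whose library was the deeper, and was absent from both telogen lists. Krt36 had 3 sites, all in suprabasal TACs alone, with coverages of 108 beyond its 3′ end, 84 inside the gene and 69 upstream of it. Thus the 2 neighbours Krt35 and Krt36 went from 0 telogen sites to 2 and 0 in basal TACs and 2 and 3 in suprabasal TACs, while Krt32 beside them went from 5 to 3.

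**Figure D3:**
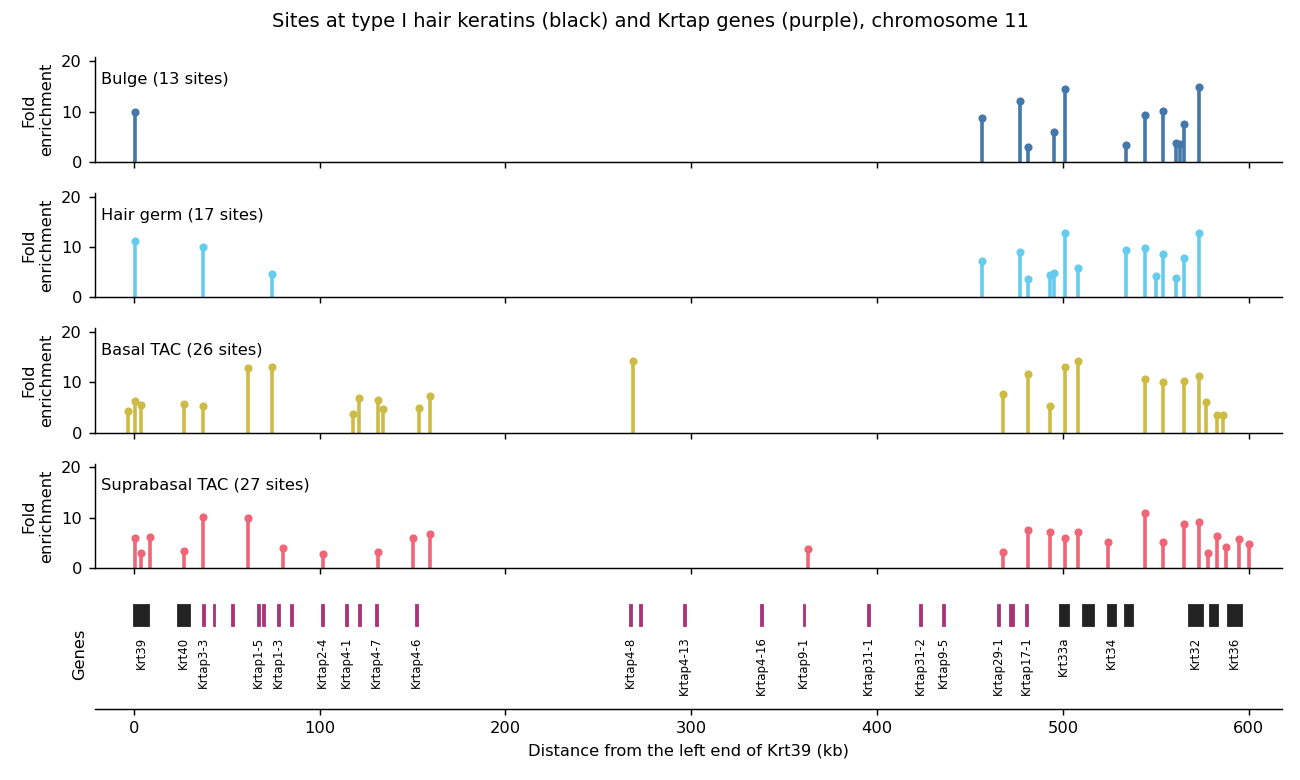
Sites of the chromosome 11 cluster in the 4 peak lists, at their distance from the left end of Krt39 (kb), with the authors' fold enrichment as height; the bottom row shows keratin genes in black and Krtap genes in purple, some without a name for lack of room. Fold enrichments rank peaks within a list only. The Krtap interval has few telogen sites, and the right end, where the keratins from Krt33a to Krt36 lie, has sites in every row.

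The 6 type II hair keratins lie within 119.2 kb on chromosome 15 (chr15:101431490-101550659). They had 6, 4, 6 and 15 sites in lineage order, and every one of the 6 had a suprabasal peak, against 4 in each other list. Per 100 kb the span held 5.87 peaks in each of the first 3 lists and 15.1 in suprabasal TACs, where the genome held 2.37, 2.15, 2.88 and 2.74. Of the 16 sites, 8 were in suprabasal TACs alone and none in basal TACs alone.

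Krt81, Krt83 and Krt86 encode the main type II chains of the cortex. Krt81 had 1 site, inside the gene at its high-coordinate end, in suprabasal TACs alone and weak (coverage 20). Krt83 had 4 sites in suprabasal TACs and 1 in each other list. The site over its high-coordinate end (chr15:101491357-101492003) had a coverage of 75 in suprabasal TACs and no peak elsewhere. The 1 site that Krt83 shares with every list, 11328.5 bp away, had coverages of 105, 51, 56 and 168. Krt86 had a common site over its high-coordinate end, with coverages of 55, 22, 32 and 37, and a suprabasal-only site over its other end (coverage 51). Krt87 had a single site, 1510.5 bp beyond its high-coordinate end, in suprabasal TACs alone (coverage 71).

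Krt82 is a cuticle keratin and Krt84 a hard keratin best known from the tongue. Krt82 had 1, 1, 2 and 3 sites. A site inside Krt82 (chr15:101544316-101544929) had a coverage of 25 in basal TACs and 157 in suprabasal TACs, and its fold enrichment of 8.60 was the highest of the cluster in the suprabasal list. Krt84 had 3, 1, 2 and 4 sites, and the common site upstream of it had coverages of 24, 18, 116 and 184. A site 16532.5 bp beyond the 3′ end of Krt84 was in both TAC lists (76 and 95), with the highest fold enrichment of the cluster in basal TACs (11.6). A common site beyond the 3′ end of Krt82 had coverages of 18, 22, 40 and 87. Sites were assigned by nearest gene, and the 33.5 kb between Krt83 and Krt84 held 7 of the 16 sites and 4 of the 8 suprabasal-only sites, so the names given to these 7 depend on the genes in the table. Any site nearest to Krt85, which was not analysed here, would be counted for another gene, so the site counts of Krt83 and Krt84 may include such sites.

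**Figure D4:**
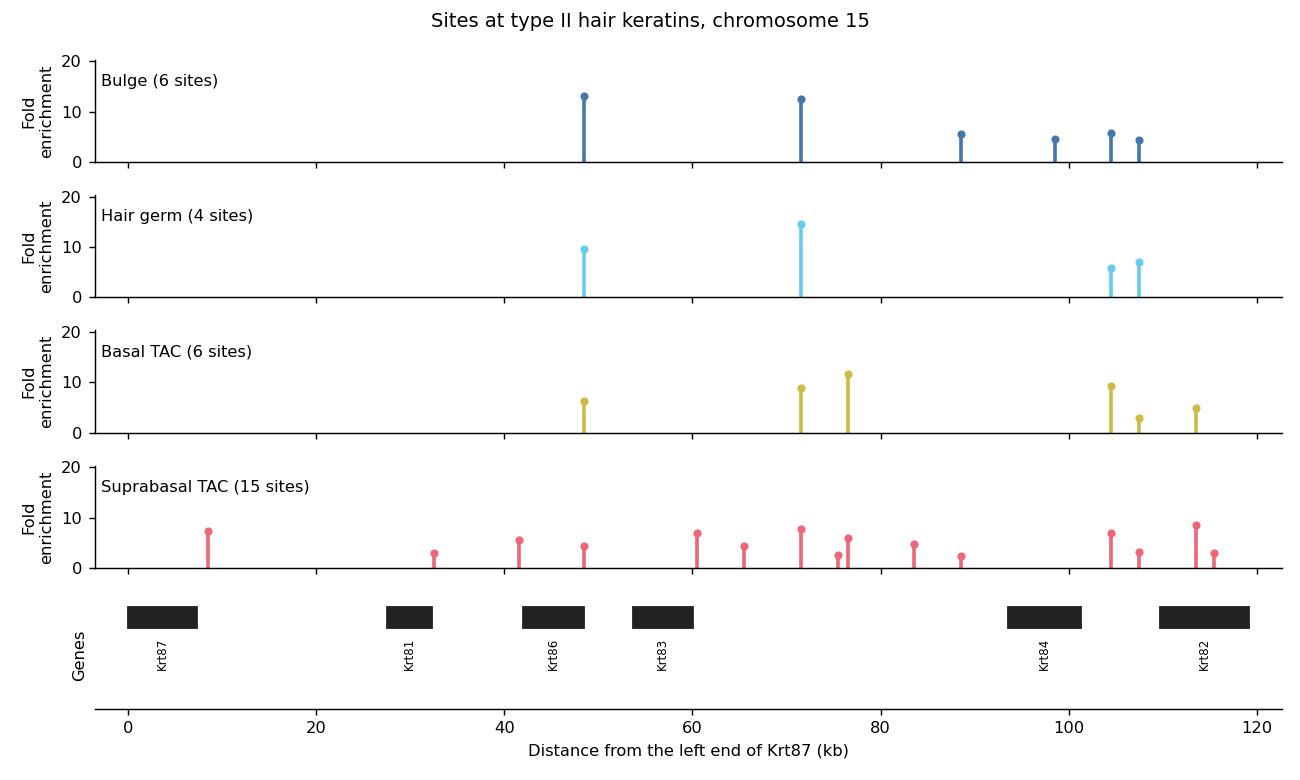
Sites of the 6 type II hair keratins in the 4 peak lists, at their distance from the left end of Krt87 (kb), with the authors' fold enrichment as height and genes as black boxes. The suprabasal TAC row has 15 sites, against 6, 4 and 6 in the rows above it, and is the only row with a site at Krt87 and Krt81.

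The 23 Krtap genes between the type I keratins had 3, 5, 12 and 10 sites. Over 271.2 kb of this interval (chr11:99587578-99858762), which contains 11 members from Krtap1-3 to Krtap4-16, neither telogen list held a peak. The 2 TAC lists did hold peaks there, often different ones, but 108.3 kb of it held no peak of any list. The longest stretch of the cluster without a peak was 167.05 kb in basal TACs and 168.8 kb in suprabasal TACs. Such stretches were not measured over the rest of the genome. Of the ultra-high-sulphur genes, Krtap4-8 had its only site 1029 bp upstream in basal TACs alone, with a coverage of 83 and a fold enrichment of 14.1 that ranked second in the cluster in that list. Krtap4-6 had 3 sites, namely 1 in basal TACs alone (coverage 25), 1 in suprabasal TACs alone (41) and 1 in both (37 and 46). Krtap4-7 had 2 sites, with a coverage of 34 in basal and 21 in suprabasal TACs at its promoter and a basal-only site (24) farther upstream.

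Of the high-sulphur genes in the same interval, Krtap3-3 had 1 site, with coverages of 23 in the hair germ, 27 in basal TACs and 227 in suprabasal TACs and no bulge peak. As joined from these peaks the site covered the whole gene, but only the suprabasal peak reached the promoter window. Krtap1-5 had 1 site beyond its 3′ end in both TAC lists (66 and 69), and Krtap2-4 a weak one at its promoter in suprabasal TACs alone (19). Krtap1-3 had 1 site in the hair germ and basal TACs (10 and 86) and another in suprabasal TACs alone (27). Next to Krt33a, Krtap17-1 had a site 3156.5 bp beyond its 3′ end (chr11:99989721-99990430) with bulge and hair germ coverages of 267 and 74 and no TAC peak, beside the site in all 4 lists at its promoter. Krtap29-1 had a telogen-only site (35 and 19) and, nearer the gene, 1383 bp upstream, a site in both TAC lists only (39 and 22).

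The largest Krtap cluster, with 24 genes in 960.5 kb of chromosome 16 (chr16:88610709-89571183), mixes high-sulphur genes (Krtap11-1, Krtap13 to Krtap15, Krtap24-1 to Krtap27-1) with high-glycine-tyrosine genes (Krtap6, Krtap7, Krtap8 and Krtap19 to Krtap22 families). It had 7, 11, 29 and 33 sites, and 32 of its 43 sites (74.4%) were in anagen lists only. A stretch of 713.2 kb with 18 members, from Krtap26-1 to Krtap20-2 (chr16:88631726-89344907), held no peak of either telogen list, also counting peaks of other genes. Of this stretch, 247.7 kb held no peak of any list. In basal TACs the longest stretch without a peak was 453.5 kb, and in suprabasal TACs 329.7 kb, with 12 and 2 members inside. Stretches elsewhere in the genome were not measured.

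At the low-coordinate end, Krtap24-1, a cuticle protein gene, and Krtap26-1 had no telogen site, 3 and 4 sites in basal TACs and 3 and 3 in suprabasal TACs. The strongest lay 10528 bp beyond the 3′ end of Krtap24-1 (chr16:88599466-88600896), with coverages of 74 in basal and 269 in suprabasal TACs. Krtap13-1 had 1 site, over its start, with coverages of 26 and 145, and its suprabasal fold enrichment of 12.5 stood at percentile 98.5 of that list. Its neighbour Krtap13 had 2 sites, both weak and in suprabasal TACs alone (27 and 16). Krtap14 had 1 site, over its promoter, with coverages of 54 and 83. In the Krtap19 family, Krtap19-1 had 0, 0, 2 and 3 sites, and Krtap19-4 had 1 site at its promoter in suprabasal TACs alone (coverage 52).

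The high-coordinate end was accessible in all populations. Krtap11-1 had the most sites of any member, 5, 6, 9 and 5 in lineage order, so that basal TACs held more than suprabasal TACs. The site over the whole of Krtap11-1 (chr16:89570160-89571657) had coverages of 179, 81, 163 and 117. A distal site 37458 bp upstream (chr16:89608180-89609102) had coverages of 151, 83, 186 and 184, and its fold enrichment was the highest of the cluster in every list (15.2, 15.9, 15.0 and 12.9). Another common site, 42699 bp upstream, had coverages of 41, 23, 79 and 41. Of the glycine-tyrosine genes near it, Krtap7-1 had 1, 3, 4 and 6 sites, Krtap8-1 had 1, 2, 2 and 4, and Krtap6-2 had 0, 0, 3 and 2. At Krtap8-1 the hair germ alone had a site over the 3′ end (coverage 27), suprabasal TACs alone a site over the promoter (39), and both TAC lists a site 1639 bp upstream (192 and 156). Common sites lay 24085 bp from Krtap8-1 (26, 49, 118 and 82) and 12288 bp from Krtap7-1 (35, 69, 162 and 28). These coverages were not scaled for depth, and the hair germ library was the shallowest, so they do not rank the populations. By fold enrichment within its list, the Krtap8-1 site stood at percentiles 42.1, 89.9, 93.7 and 92.6. The Krtap7-1 site stood at 45.7, 78.9, 69.2 and 30.5.

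**Figure D5:**
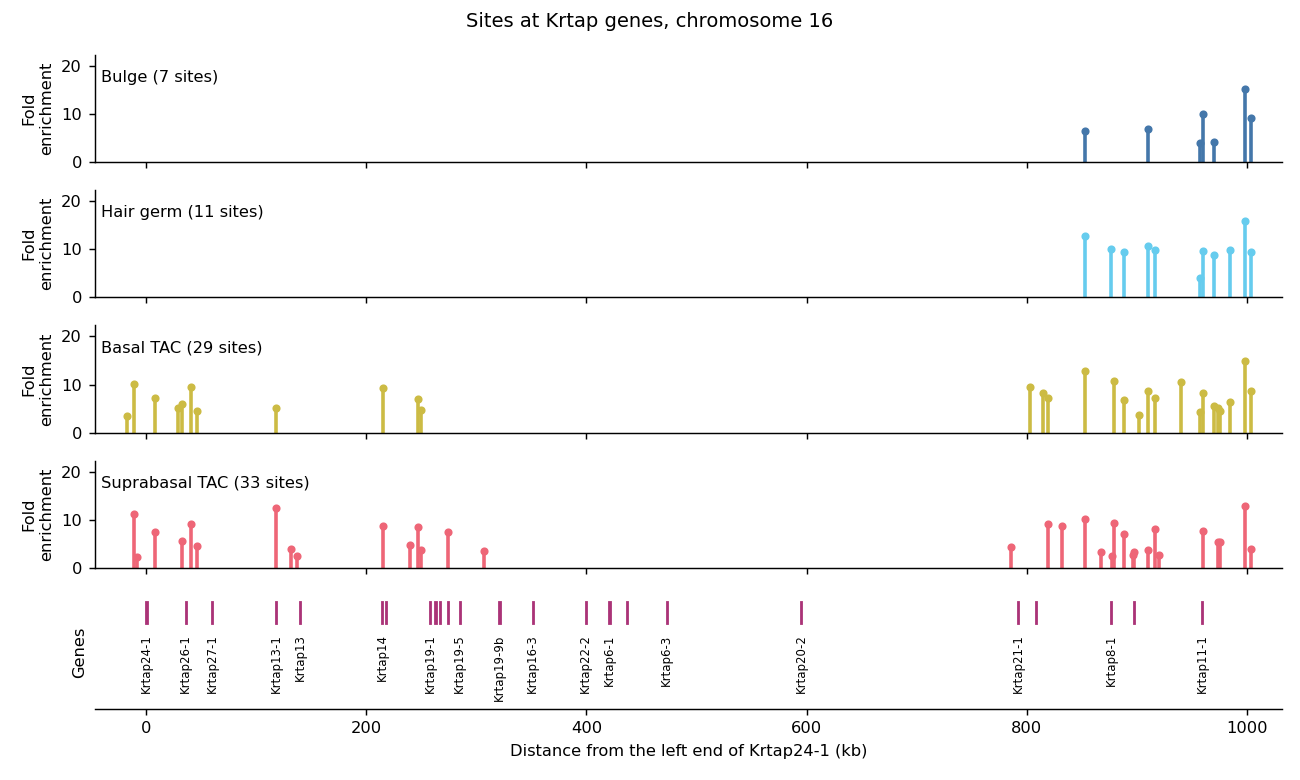
Sites of the chromosome 16 Krtap cluster in the 4 peak lists, at their distance from the left end of Krtap24-1 (kb), with the authors' fold enrichment as height and genes in purple, some without a name for lack of room. The bulge row (7 sites) and hair germ row (11 sites) are empty left of the last genes, whereas the basal (29 sites) and suprabasal (33 sites) rows have sites at both ends.

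The 3 small clusters gave little. The 5 Krtap5 genes of chromosome 7 (chr7:142174532-142304503), which encode ultra-high-sulphur cuticle proteins, and the 3 Krtap10 and Krtap12 genes of chromosome 10 (chr10:77720586-77837251) had no assigned site in any list. The chromosome 10 span held 1, 0, 0 and 5 peaks and the chromosome 7 span 1, 1, 1 and 5, all with another gene as the nearest, so the suprabasal list again held most. A midpoint inside another gene's span was assigned to that gene, however near it lay to a member. The lack of assigned sites therefore does not show a lack of peaks near these genes. The nearest suprabasal peak to a member was 3.93 kb away on chromosome 10 and 6.20 kb on chromosome 7. Krtap28-13, alone on chromosome 1 (chr1:83060930-83061921), had 3, 2, 1 and 1 sites, the reverse of the usual order. A site 5024 bp beyond its 3′ end was in both telogen lists (29 and 17) and one 3112 bp beyond it in the bulge alone (26). Its common site, 14390 bp away, had coverages of 21, 8, 34 and 43.

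Few of these sites lay on promoters. The promoter window runs from 250 bases before to 50 after the gene start and was known for 60 members. A peak overlapped 2 member windows in each telogen list (3.33%, interval 0.406 to 11.5), 5 in basal TACs (8.33%, 2.76 to 18.4) and 10 in suprabasal TACs (16.7%, 8.29 to 28.5), where all genes with a window gave 58.3%, 57.5%, 60.1% and 59.6%. The suprabasal count was 7 at −log10 q-values of at least 10, and also 7 with equal numbers of peaks per list. Shaft gene promoters were poor in G and C, with a median of 40.8% against 55.6% over all windows. Among all promoters with at most 60% G and C, 45.4%, 44.9%, 47.2% and 46.5% had a peak. That cut is loose, since no member window exceeded 53.2%. The part of base composition in the low share of promoters with a peak was not tested.

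The 10 windows with a suprabasal peak are printed below because they hold the promoters that differed between populations. Sequences are the 250 bases before the start, from RefSeq (GRCm38.p6, the same assembly as mm10), 5′ to 3′ on the gene's strand. Capitals mark matches, on either strand, to TATAAA (the TATA box), CTTTGA (TCF/LEF factors), CAATAAA and CTCGTAAA (HOX13 group), TGANTCA (AP-1), AGATAA (for GATA factors), TGTGGT (RUNX) and GGGCGG (SP/KLF). Krtap11-1 (chr16:89571184-89571433, minus strand) and Krtap17-1 (chr11:99993995-99994244, minus strand) had a promoter peak in all 4 lists.
Krtap11-1: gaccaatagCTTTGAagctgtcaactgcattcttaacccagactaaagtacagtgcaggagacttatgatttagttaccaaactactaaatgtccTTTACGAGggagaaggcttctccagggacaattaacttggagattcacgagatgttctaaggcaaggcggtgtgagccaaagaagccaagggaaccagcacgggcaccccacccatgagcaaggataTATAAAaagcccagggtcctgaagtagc
Krtap17-1: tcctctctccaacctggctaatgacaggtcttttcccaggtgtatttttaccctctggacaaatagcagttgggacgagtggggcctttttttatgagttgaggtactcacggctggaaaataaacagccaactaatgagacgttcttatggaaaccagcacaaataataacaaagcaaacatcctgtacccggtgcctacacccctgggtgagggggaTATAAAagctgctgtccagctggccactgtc
The coverage at the Krtap17-1 promoter was 58, 26, 109 and 69. These values were not scaled for depth, and the suprabasal library was the deepest, so their order does not rank the populations. Krtap4-7 (chr11:99644090-99644339, minus strand), Krtap13-1 (chr16:88728612-88728861, plus strand) and Krtap14 (chr16:88826146-88826395, minus strand) had a promoter peak in both TAC lists and in neither telogen list.
Krtap4-7: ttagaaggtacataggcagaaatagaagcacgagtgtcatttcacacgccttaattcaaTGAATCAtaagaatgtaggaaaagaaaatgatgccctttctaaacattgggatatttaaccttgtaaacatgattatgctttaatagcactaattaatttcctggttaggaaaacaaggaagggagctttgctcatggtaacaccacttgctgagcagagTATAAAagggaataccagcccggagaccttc
Krtap13-1: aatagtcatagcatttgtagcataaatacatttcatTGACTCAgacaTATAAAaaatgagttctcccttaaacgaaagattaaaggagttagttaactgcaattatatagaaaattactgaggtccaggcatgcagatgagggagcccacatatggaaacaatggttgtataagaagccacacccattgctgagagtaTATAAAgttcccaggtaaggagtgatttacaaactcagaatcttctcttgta
Krtap14: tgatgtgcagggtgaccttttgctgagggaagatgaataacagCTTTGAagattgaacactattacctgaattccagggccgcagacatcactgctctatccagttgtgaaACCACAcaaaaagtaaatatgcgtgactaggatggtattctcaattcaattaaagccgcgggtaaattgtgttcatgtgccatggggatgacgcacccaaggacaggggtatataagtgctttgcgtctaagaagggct
Krt39 (chr11:99521339-99521588), Krtap3-3 (chr11:99550864-99551113), Krtap2-4 (chr11:99614847-99615096), Krtap19-4 (chr16:88885090-88885339) and Krtap8-1 (chr16:89487953-89488202), all on the minus strand, had a promoter peak in suprabasal TACs alone. The peaks over these 5 windows had coverages of 46, 227, 19, 52 and 39.
Krt39: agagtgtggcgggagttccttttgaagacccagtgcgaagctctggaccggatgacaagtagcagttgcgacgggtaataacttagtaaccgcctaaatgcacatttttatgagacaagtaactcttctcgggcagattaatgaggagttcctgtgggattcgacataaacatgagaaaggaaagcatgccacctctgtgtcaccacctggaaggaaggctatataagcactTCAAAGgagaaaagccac
Krtap3-3: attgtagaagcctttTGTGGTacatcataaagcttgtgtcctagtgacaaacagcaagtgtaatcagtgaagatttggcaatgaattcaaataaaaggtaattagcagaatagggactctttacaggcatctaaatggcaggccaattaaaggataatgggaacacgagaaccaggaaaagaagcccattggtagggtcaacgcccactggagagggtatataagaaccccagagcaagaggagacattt
Krtap2-4: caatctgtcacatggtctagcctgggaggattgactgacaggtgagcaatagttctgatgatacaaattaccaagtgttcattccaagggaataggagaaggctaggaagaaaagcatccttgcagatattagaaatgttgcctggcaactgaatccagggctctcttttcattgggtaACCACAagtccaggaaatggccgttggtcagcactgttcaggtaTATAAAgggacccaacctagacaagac
Krtap19-4: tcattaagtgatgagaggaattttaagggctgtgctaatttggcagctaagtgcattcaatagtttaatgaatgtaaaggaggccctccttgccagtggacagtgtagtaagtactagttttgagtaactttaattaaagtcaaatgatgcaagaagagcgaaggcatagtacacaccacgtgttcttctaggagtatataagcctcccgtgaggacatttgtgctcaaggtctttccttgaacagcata
Krtap8-1: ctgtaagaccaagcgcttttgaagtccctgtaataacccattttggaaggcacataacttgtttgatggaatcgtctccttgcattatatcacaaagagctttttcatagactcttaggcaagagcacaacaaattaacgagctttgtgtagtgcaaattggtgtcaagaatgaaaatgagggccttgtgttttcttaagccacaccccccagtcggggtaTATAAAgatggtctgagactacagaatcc

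TATA boxes were more frequent in member windows than in all windows. TATAAA was present in 48 of 60 member windows (80%) against 12.7% of all 21045 windows, and on the gene's strand between 22 and 35 bases before the start in 32 (53.3%) against 2.38%. Of the 10 windows printed above, 6 hold TATAAA, 5 of them in that position. The other 4, those of Krt39, Krtap3-3, Krtap14 and Krtap19-4, hold TATATAAG on the gene's strand, a form chosen for counting after the sequences were seen. TATATAAG was in 9 member windows (15%) against 0.699% of all windows. TATA boxes did not separate windows with a suprabasal peak from those without, since TATAAA was in 6 of 10 and 42 of 50. CTTTGA was in 20 member windows (33.3%) against 14.4%, TGANTCA in 10 (16.7%) against 7.04%, AGATAA in 11 (18.3%) against 9.68% and TGTGGT in 14 (23.3%) against 14.7%. GGGCGG was in none, against 46.7% of all windows, and CAATAAA in none, against 3.71%. CTCGTAAA was found in 24 of all windows (0.114%) and in 2 of the 60 members, Krtap11-1, at position -155 from the start, and Krt40, at position -152. Member windows were poorer in G and C (median 40.8% against 55.6%), and some are much alike, such as those of Krtap31-1 and Krtap31-2. The part of base composition and of related sequences in these motif shares was not tested. These are matches of letters and not sites of binding.

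Other gene groups of the follicle set the scale, from lists written with earlier results of these data known. The 7 inner root sheath keratins used (Krt74 was not analysed here), which build the sheath around the shaft, had 4, 6, 9 and 19 sites in lineage order, and 13 of their 19 sites (68.4%, interval 43.4 to 87.4) were in anagen lists only, against 63.8% for the shaft genes. The 19 other keratins, of the outer root sheath and epidermis, had 61, 55, 52 and 52 sites and 21.4% (13.2 to 31.7) in anagen lists only. The 14 other hair shaft proteins, such as the transglutaminase Tgm3 and the desmoglein Dsg4, had 29, 31, 55 and 80 sites and 64.9% (54.6 to 74.3) in anagen lists only. Over all assigned sites the share in anagen lists only was 40.4%. The interval of the other keratins did not overlap that of the shaft genes. These intervals cover counting error only and treat neighbouring sites as independent, and the difference between the groups was not tested.

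The 13 regulators of shaft genes on the list had 101, 104, 138 and 169 sites, and 43.2% (36.4 to 50.1) of their 213 sites were in anagen lists only. This was near the 40.4% of all assigned sites. Lef1, the TCF/LEF factor of the matrix, had 5, 10, 18 and 27 sites and Hoxc13, which binds hair keratin promoters, 5, 6, 14 and 19. Msx1 had 4, 6, 12 and 14 sites, Msx2 had 10, 12, 13 and 16, and Foxn1, whose loss gives the nude mouse, 3, 3, 5 and 7. Dlx3 had 5, 5, 8 and 7 sites, Foxq1 had 5, 4, 8 and 9, and the beta-catenin gene Ctnnb1 had 7, 8, 10 and 14. Prdm1 had 14, 16, 13 and 14 sites, Gata3 had 16, 11, 12 and 17, Vdr had 14, 14, 15 and 12, Hr had 4, 4, 4 and 5 and Bmpr1a had 9, 5, 6 and 8. So 8 of the 13 had more sites in each TAC list than in each telogen list, and all 13 had at least 1 site in every list, unlike the shaft genes. Neither count was made over all genes.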

How the data were processed

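Accessible chromatin was measured by ATAC-seq in 8 samples, pooled by the authors into 4 lists. Per the submitters' processing notes, the authors used Bowtie2 2.2.9, Picard and mm10. Per the file headers, the peak caller was MACS 2.1.1.20160309 in paired-end mode, without a control, at a q-value threshold of 0.05, with a local background of 10 kb and a genome size set to 1.87e+09. The deposited columns used were the coverage (signal) at the summit in fragments, not scaled for depth, the fold enrichment (a ratio to the local background) and the −log10 p- and q-values, whose column names were damaged in the deposited files and were read by MACS's column order. The fold enrichment is the authors' and ranks peaks only within a list. The labels and headers give no shift of read ends.

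Peaks on chromosomes 1 to 19 and X were assigned to the nearest protein-coding gene span of the RefSeq table (GRCm38.p6) within 100 kb, and joined into sites where they overlapped by 1 bp. Members at most 1 Mb apart formed a cluster. Promoter windows and sequences came from RefSeq, for 60 of 71 members. Counts were made with Python 3.11.15, pandas 2.3.3, numpy 2.4.6 and scipy 1.17.1, figures with matplotlib 3.10.9, and the steps were tested on simulated data. No p-values were computed, because each list pools both samples and it is not stated whether these came from separate animals. All member keratins were named, and of the Krtap genes those with a promoter peak, the 10 with most sites and the 3 with most sites in each cluster, with the 3 highest fold enrichments per list and cluster. Other single sites and Krtap genes were named after their values were seen. The members and lists were chosen with earlier results of these data known. Alternatives varied the q-value threshold, list length, distance, gene assignment, overlap, depth, member set and promoter window.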

Additional observations from a re-analysis of the deposited data

How the results depend on the processing

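Of 193 values recomputed under 13 alternatives, 169 stayed within 1.5 times the count, or within the interval, and 24 moved. Without the chromosome 11 cluster the peaks at members were 16, 17, 37 and 49 in lineage order and the genes with a peak 8, 8, 14 and 20, and there were 6 basal-only sites, 10 in all 4 lists and 4 in telogen lists only. Without the chromosome 16 cluster, which has as many sites, the peaks were 33 in basal and 43 in suprabasal TACs, 25 genes had a suprabasal peak, 18 sites were suprabasal-only, 8 basal-only and 9 in both TAC lists only, and the share of changed sites in basal TACs against the bulge was 67.7%. At −log10 q-values from 10 up, suprabasal-only sites numbered 20 and hair germ promoters with a peak 1. Members with a peak were then 28 in basal and 28 in suprabasal TACs, against 31 and 38 before. Both of these counts stayed within 1.5 times, although the lead of suprabasal TACs was gone. With equal numbers of peaks per list, 14 sites were in both TAC lists only. With the gene span plus 1 kb in place of the promoter window, bulge, hair germ and basal TAC peaks overlapped 6, 7 and 13 of the 60 members. Leaving out clusters, raising the threshold and cutting the lists all remove peaks or genes by construction, and the wider window adds bases. The share of changed sites held by suprabasal against basal TACs ranged from 53.8% to 71.0%, with 34.9% to 50.8% over all sites. Scaling absence for depth, also against the coverage of a weak peak, and leaving out the sites between Krt83 and Krt84 moved none of the 11 values each; the weak-peak scaling and that omission were chosen after seeing the data. No paired analysis was possible because each list pools both replicates, and for the same reason no replicate could be left out.

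Depth limits the hair germ list most, with 11053351 fragments, and a site missing from a list was not called there, which does not show that it was closed.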
